A study of Homo sapiens with 6 samples.

Results

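A set of 37 genes of the hypoxia response and of glycolysis was followed through TEAD4 knockdown in a pair of human colorectal cancer cell lines. The members were chosen by name, from hypoxia-inducible factor (HIF) genes and targets, glucose transporters and glycolytic enzymes with the carbonic anhydrases left aside, and all 37 were found among the 26336 genes measured. RNA was sequenced from HCT116, a primary tumour line, and from SW620, which was established from a nodal metastasis. Each line had 1 control library, from cells carrying the lentiviral hairpin vector pLKO, and 2 libraries of cells with a short hairpin RNA against TEAD4, the DNA-binding partner through which YAP and TAZ, the effectors of Hippo signalling, reach their target genes. All cells were grown in DMEM with serum, and the labels name no other treatment and no oxygen level. Whether the knockdown libraries of a line come from different hairpins, cultures or clones is not stated, so their spread may be technical. They are called knockdown library 1 and 2 as in the deposited columns.

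HIF is a pair of proteins, an oxygen-labile alpha subunit (HIF1A or EPAS1, also called HIF-2 alpha) and a stable partner. When oxygen is present, prolyl hydroxylases of the EGLN family mark the alpha subunit for destruction through the VHL protein, and when oxygen is short the alpha subunit persists, enters the nucleus and binds a short DNA motif, the hypoxia response element. Its targets include glucose transporters, nearly every glycolytic enzyme, the kinases that keep pyruvate out of the mitochondrion, and genes of blood vessel growth, mitophagy and collagen modification. The oxygen signal acts on HIF1A and EPAS1 protein, which RNA counts do not measure.

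Sequencing depth ran from 15778571 to 18859715 reads over the named genes of a library. Genes of the colon epithelium (KRT8, KRT18, KRT19, EPCAM, CDH1) were abundant in both lines, CDX1 had 0 reads in each library, and VIL1, a brush border gene, stood at 2.03 normalized counts or less in HCT116 against 4870 to 6070 in SW620. Of the markers of other cells, PTPRC, CD3E, PECAM1 and CDH5 reached no more than 3.05 normalized counts, but others on the same lists were higher. Fibroblast markers summed to 824 normalized counts in the HCT116 control and 1070 in the SW620 control. Leukocyte markers summed to 74.2 and 157 in the same order, and endothelial markers to 55.9 and 46.9. The normalized count is the authors' value, reads divided by 1 size factor per library, set within each line's table separately. TEAD4 itself (GRCh38 chr12:2959330-3040673, plus strand) stood at 355 normalized counts in the HCT116 control and 68.2 and 68.6 in its knockdown libraries, 19.2% and 19.3% of control. The SW620 control had 1140 and its knockdown libraries 268 and 234, 23.5% and 20.5% of control. Over both lines the TEAD4 log2 fold change was -2.27 ± 0.25 (here and throughout, ± gives the standard error of the fit), lower in 4 of 4 knockdown libraries, with a limma adjusted p of 0.356 over all 18743 genes tested. The adjusted p over both lines was 0.112 in edgeR and 3.19e-14 in DESeq2. In the authors' deposited tables the TEAD4 adjusted p was 0.432 in HCT116 and 1.92e-05 in SW620.

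Across the members, the knockdown comparison rested on few libraries and no member passed the threshold of an adjusted p under 0.05 in limma, either over both lines, in HCT116, in SW620 or in the difference between lines. The share of all genes past that threshold was 0.0% in each of these 4 comparisons. The smallest limma adjusted p of a member was 0.935 over both lines, 0.828 in HCT116, 1 in SW620 and 1 for the difference. The edgeR quasi-likelihood test on the recovered reads also called 0 members, and DESeq2 called 1, SLC2A3 in HCT116. At an unadjusted limma p under 0.05, EGLN1 and GPI were higher and NDRG1 and SLC2A3 lower over both lines, 2 members each way of 37, against 1.73% of all genes higher and 2.71% lower. In HCT116 these were EGLN1 (higher) and NDRG1 and SLC2A3 (lower), against 2.87% and 2.66% of all genes. In SW620 it was NDRG1 (lower), against 0.523% of all genes higher and 0.928% lower, and the difference between lines gave SLC2A3, against 1.22% of all genes with a positive and 1.04% with a negative difference. Since total RNA of a culture was measured, fewer cells expressing a gene and less RNA per cell cannot be told apart.

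A description by size of change counted genes for which both knockdown libraries stood at least 1.5-fold from control in the same direction, and read only those averaging 10 normalized counts or more in the line. All 37 members could be read this way in HCT116 and 35 in SW620, where ANGPTL4 and DDIT4L were too low. In HCT116, EGLN1 was past this size upward, against 6.5% of all genes, and EGLN3, NDRG1, SLC2A3 and PDK3 downward, against 7.69%. In SW620, 0 members were past it upward, against 1.84% of all genes, and NDRG1 and ALDOC downward, against 4.02%. NDRG1 was the one member past it in both lines. All 4 knockdown libraries stood above their own control for 2 members, EGLN1 and GPI, against 13.9% of all genes, and below for 6, NDRG1, ANKRD37, BNIP3L, HK1, ALDOC and PKM, against 11.7%.

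**Figure D1:**
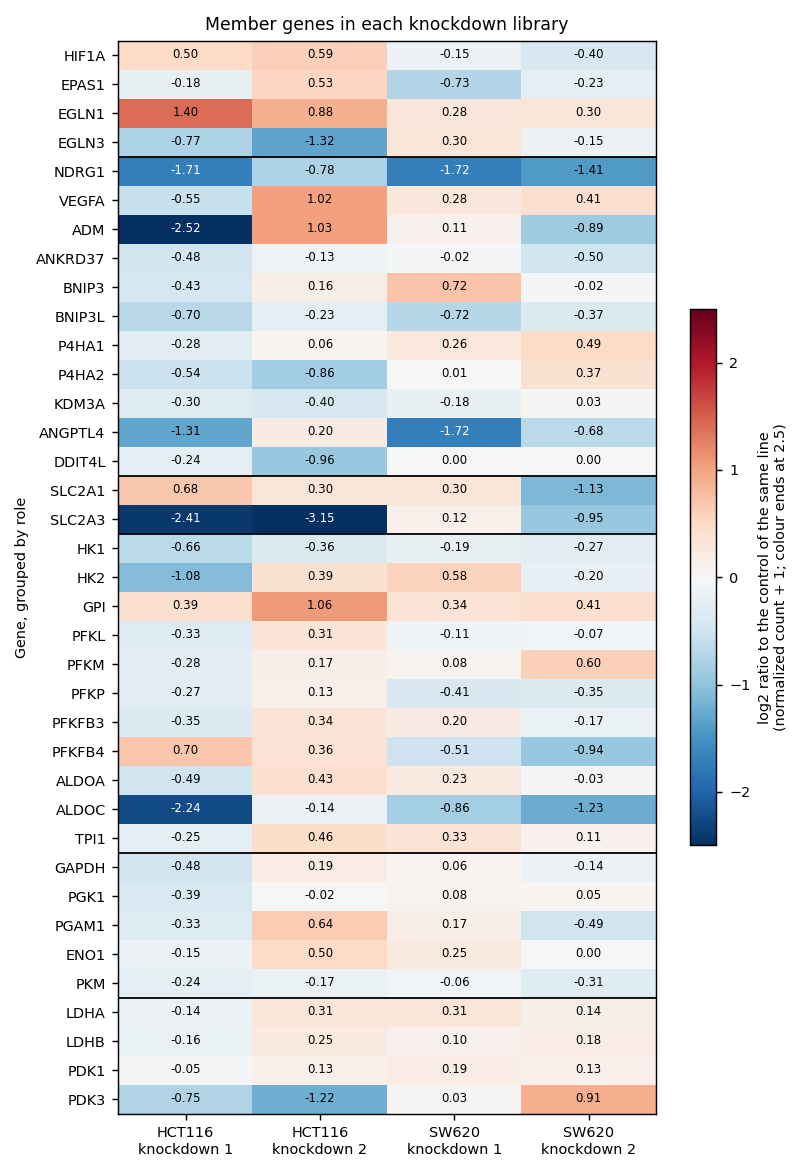
Log2 ratio of the normalized count (plus 1) of each of the 37 members to the control of the same line, 1 column for each of the 4 knockdown libraries, with genes in rows grouped by role and colour from blue (below control) to red (above control). NDRG1 is blue in all 4 columns, SLC2A3 is dark blue in both HCT116 columns (-2.41 and -3.15), and many rows differ in colour between the 2 HCT116 columns.

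Promoters of 5 members that stand out after knockdown or between the lines are shown because they carry the letters that HIF reads. The core of the hypoxia response element was searched as ACGTG, or CACGT on the other strand, in the 250 bases before each RefSeq gene start (assembly GRCh38.p14), and capitals mark the matches. Of the members, 33 had a start in that table, and 18 of them held a match in front of at least 1 start. By start, 21 of 57 member starts held it (36.8%), against 18.5% of all 35116 starts. The letters of the TEAD motif, GGAATG or CATTCC, stood before 4 of the 57 member starts (7.02%; ENO1, PFKFB3, PFKP and PGAM1), against 11.9% of all starts. A match is a description of letters and not of binding. NDRG1, SLC2A3, VEGFA and BNIP3L had no start in that table and are not shown. The windows of EGLN3, EPAS1, ADM and DDIT4L held no match. ALDOC and BNIP3 hold the palindrome CACGTG, in which the matches on both strands overlap and are counted once each. The windows are ALDOC at chr17:28576896-28577145 (minus strand), EGLN1 at chr1:231422288-231422537 (minus), PDK3 at chrX:24465036-24465285 (plus), ANGPTL4 at chr19:8363905-8364154 (plus) and BNIP3 at chr10:131981924-131982173 (minus), each written 5′ to 3′ and ending at the base before the start.
ALDOC: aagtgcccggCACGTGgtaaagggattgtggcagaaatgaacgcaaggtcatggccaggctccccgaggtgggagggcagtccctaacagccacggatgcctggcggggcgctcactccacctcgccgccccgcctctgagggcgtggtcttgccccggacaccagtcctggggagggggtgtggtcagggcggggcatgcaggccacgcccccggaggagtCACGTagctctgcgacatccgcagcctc
EGLN1: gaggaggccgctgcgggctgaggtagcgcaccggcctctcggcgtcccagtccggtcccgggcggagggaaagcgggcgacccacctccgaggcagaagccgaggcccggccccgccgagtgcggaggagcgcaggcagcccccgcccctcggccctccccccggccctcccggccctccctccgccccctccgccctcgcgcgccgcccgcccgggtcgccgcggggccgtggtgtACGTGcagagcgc
PDK3: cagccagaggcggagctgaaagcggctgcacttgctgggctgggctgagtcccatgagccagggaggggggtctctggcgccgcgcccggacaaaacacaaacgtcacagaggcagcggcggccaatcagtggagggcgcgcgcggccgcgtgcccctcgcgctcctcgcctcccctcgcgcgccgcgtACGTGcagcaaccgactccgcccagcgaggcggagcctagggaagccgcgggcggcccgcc
ANGPTL4: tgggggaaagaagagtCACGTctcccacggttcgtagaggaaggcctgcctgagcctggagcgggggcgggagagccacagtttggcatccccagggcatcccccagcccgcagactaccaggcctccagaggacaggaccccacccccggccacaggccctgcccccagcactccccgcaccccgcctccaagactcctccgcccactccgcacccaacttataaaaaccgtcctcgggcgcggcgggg
BNIP3: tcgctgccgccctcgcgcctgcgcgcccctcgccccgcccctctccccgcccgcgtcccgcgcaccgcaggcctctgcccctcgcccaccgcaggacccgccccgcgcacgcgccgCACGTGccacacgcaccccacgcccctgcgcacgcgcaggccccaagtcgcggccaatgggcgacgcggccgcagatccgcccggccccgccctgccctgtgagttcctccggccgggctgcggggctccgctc
In EGLN1 the match begins 13 bases before the start, and in PDK3 it begins 61 bases before it. In ALDOC the palindrome lies near the far end of the window and a further match begins 28 bases before the start. In ANGPTL4 the match begins 234 bases before the start. None of these 5 windows holds the TEAD letters.

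Of the HIF system itself, the oxygen sensor EGLN1 was higher and its relative EGLN3 lower after knockdown in HCT116, and neither stood 1.5-fold from control in SW620. EGLN1 (GRCh38 chr1:231363751-231425044, minus strand), the main hydroxylase that marks HIF for destruction, stood at 784 normalized counts in the HCT116 control and 2074 and 1446 in knockdown libraries 1 and 2. The SW620 control had 747 and its knockdown libraries 905 and 920. All 4 knockdown libraries were above their control, with a log2 fold change of 1.14 ± 0.32 (SE) in HCT116, 0.29 ± 0.32 in SW620 and 0.72 ± 0.26 over both lines. Without the control of 1 line, the fit over both lines only returns the value of the other line, so that is no further check. The difference between lines was -0.85 ± 0.45.

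EGLN3, a hydroxylase that is itself induced by HIF, stood at 155 normalized counts in the HCT116 control and 90.1 and 61.1 after knockdown. Both HCT116 knockdown libraries were below control (log2 fold change -1.05 ± 0.47 SE). In SW620 the control, at 192, lay between the knockdown libraries at 236 and 173. Per kilobase of transcript, EGLN3 made up 34.1% of the EGLN1 and EGLN3 signal in the HCT116 control and 10.2% and 9.97% after knockdown. In SW620 its share was 40.3% in the control and 40.6% and 33.0% after knockdown, so the HCT116 knockdown libraries had the lowest shares of the 6.

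HIF1A, the alpha subunit present in most tissues, stood at 2015 normalized counts in the HCT116 control and 2856 and 3043 after knockdown, and at 2097, 1895 and 1591 in the same order in SW620. The knockdown libraries were thus above control in HCT116 (0.55 ± 0.26) and below it in SW620 (-0.27 ± 0.26), with a difference of -0.82 ± 0.37. EPAS1, the alpha subunit with a narrower range of tissues, stood at 1956, 1730 and 2827 in HCT116 and at 35.1, 20.8 and 29.7 in SW620. The EPAS1 knockdown libraries lay on both sides of control in HCT116 and below it in SW620.

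Among the 11 HIF targets outside glucose metabolism, NDRG1, BNIP3L and ANKRD37 were below control in all 4 knockdown libraries. DDIT4L was below control in both HCT116 knockdown libraries and had 0 reads in SW620, and the others were split. NDRG1, a stress-response gene widely used as a marker of hypoxia, stood at 14929 normalized counts in the HCT116 control and 4552 and 8715 after knockdown, 30.5% and 58.4% of control. In SW620, at a far lower level, the control had 119 and the knockdown libraries 35.6 and 44.1, 29.9% and 37% of control. In neither line did the knockdown libraries reach the control. The NDRG1 log2 fold change was -1.40 ± 0.29 (SE) over both lines, -1.24 ± 0.46 in HCT116 and -1.56 ± 0.46 in SW620, with a difference between lines of -0.32 ± 0.65. The value over both lines ranged from -1.63 to -1.23 over 14 alternatives, with adjusted p from 0.0808 to 1. Among these alternatives, the fits without the control of 1 line only return the value of the other line. Leaving out HCT116 knockdown library 1 brought the HCT116 value to -0.78.

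**Figure D2:**
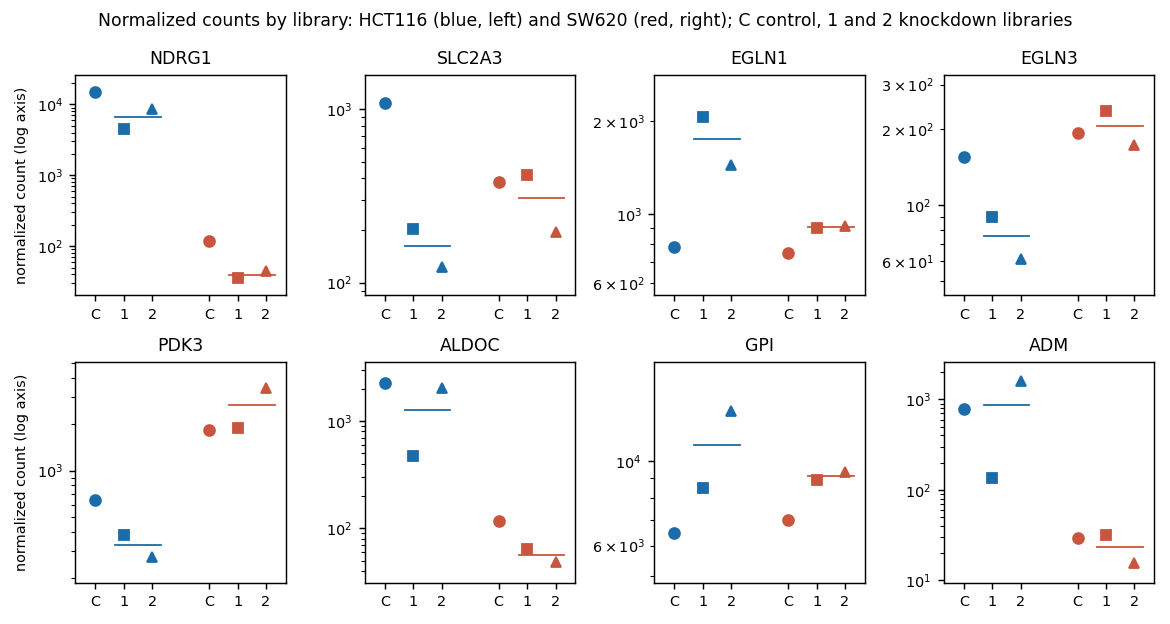
Normalized counts, on a log axis, of 8 members in each of the 6 libraries, with HCT116 in blue on the left and SW620 in red on the right of each panel, a circle for the control, a square and a triangle for knockdown libraries 1 and 2 and a line at their mean. NDRG1 stands at 14929 in the HCT116 control against 4552 and 8715 and at 119 in the SW620 control against 35.6 and 44.1, while ADM and ALDOC have HCT116 knockdown libraries far apart.

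Secreted factors among these targets did not move one way. ADM, which encodes the vasodilator peptide adrenomedullin, stood at 780 normalized counts in the HCT116 control, 135 in knockdown library 1 and 1591 in library 2, so the control lay between them. VEGFA, the main growth factor of blood vessels, likewise stood at 1096, 749 and 2225 in HCT116, and at 619, 749 and 825 in SW620. ANGPTL4, an inhibitor of lipoprotein lipase, stood at 2022, 817 and 2317 in HCT116. In SW620, ADM stood at 29.3, 31.6 and 15.4 and ANGPTL4 at 8.79, 1.98 and 5.13, the latter under the mean of 10 set for reading a size of change.

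The mitophagy receptor BNIP3L stood at 1772, 1091 and 1515 normalized counts in HCT116 and at 732, 445 and 567 in SW620. All 4 knockdown libraries were below control, by -0.50 ± 0.22 (SE) over both lines on the log2 scale. Its relative BNIP3 did not share this, with 745, 552 and 831 in HCT116 and 30.3, 50.4 and 29.7 in SW620. P4HA1 and P4HA2 are alpha subunits of the enzyme that hydroxylates proline in collagen. P4HA2 stood at 1250, 857 and 688 in HCT116, both knockdown libraries below control, and at 356, 359 and 461 in SW620. P4HA1 stood at 1184, 977 and 1231 in HCT116 and at 1158, 1386 and 1626 in SW620. The histone demethylase KDM3A, ANKRD37 and the mTOR inhibitor DDIT4L had HCT116 log2 fold changes from -0.60 to -0.30.

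Of the glucose transporters, SLC2A3 was lower in both HCT116 knockdown libraries and SLC2A1 was not. SLC2A3 (GRCh38 chr12:7919230-7936275, minus strand) encodes GLUT3, a transporter with high glucose affinity, and stood at 1096 normalized counts in the HCT116 control, 205 in knockdown library 1 and 122 in library 2, 18.7% and 11.2% of control. The SW620 control had 382, with 416 in library 1 and 197 in library 2, so the control lay between them. The log2 fold change in HCT116 was -2.78 ± 0.59 (SE), in SW620 -0.41 ± 0.59, and the difference between lines was 2.37 ± 0.84 (limma adjusted p = 1). For HCT116 the limma adjusted p was 0.828, that of edgeR was 0.906 and that of DESeq2 was 0.00493, where DESeq2 called 0.127% of all genes. In the authors' deposited table SLC2A3 was the only member called, at -1.88 in log2 fold change (adjusted p = 0.0222) in HCT116, where 0.0293% of genes were called, and 0 members were called in SW620, where 0.0226% were. Over both lines the value was -1.60 ± 0.56. Without the control of 1 line, this fit only returns the value of the other line, -0.41 or -2.78, which is no further check. SLC2A14, a near-identical copy on the same chromosome, reached no more than 12.3 normalized counts in any library.

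SLC2A1, which encodes GLUT1, the basal transporter of most cancer cells, stood at 3848 normalized counts in the HCT116 control and 6173 and 4744 after knockdown. The SW620 control had 13680, with 16860 in library 1 and 6269 in library 2. The SW620 knockdown libraries thus lay on both sides of control, and SLC2A1 had the largest drop from library 1 to library 2 of any member there, -1.43 on the log2 scale. Per kilobase, SLC2A3 made up 13.3% of the 2 transporters' signal in the HCT116 control and 1.75% and 1.37% after knockdown. In SW620 its share was between 1.31% and 1.66% in all 3 libraries, so the HCT116 control stood apart from the other 5 libraries.

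The upper part of glycolysis, from hexokinase to triose phosphate isomerase with the PFKFB regulators, had 11 members and few common directions. GPI, which turns glucose 6-phosphate into fructose 6-phosphate, stood at 6467 normalized counts in the HCT116 control and 8498 and 13491 after knockdown. The SW620 control had 7006 and its knockdown libraries 8893 and 9330. All 4 knockdown libraries were above control (0.55 ± 0.24 SE over both lines, 0.73 in HCT116 and 0.38 in SW620). Hexokinase 1 (HK1), the housekeeping form, was below control in all 4, with 4708, 2970 and 3669 in HCT116 and 3428, 3013 and 2833 in SW620 (-0.37 ± 0.19). Hexokinase 2 (HK2), the form induced by HIF, stood at 1645, 776 and 2150 in HCT116 and at 2416, 3611 and 2107 in SW620, with the control between the knockdown libraries in both lines.

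Aldolase C (ALDOC), the brain-type aldolase, was below control in all 4 knockdown libraries. It stood at 2256 normalized counts in the HCT116 control, 477 in library 1 and 2049 in library 2. The SW620 control had 117, and its knockdown libraries had 64.2 and 49.2. The log2 fold change was -1.12 ± 0.52 (SE) over both lines. ALDOA, the main aldolase, stood at 20481, 14575 and 27503 in HCT116 and at 10557, 12364 and 10312 in SW620, on both sides of control in each line.

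The phosphofructokinase genes PFKL (liver type), PFKM (muscle type) and PFKP (platelet type) catalyse the committed step. In HCT116, PFKL stood at 2601, 2068 and 3233 normalized counts, PFKM at 3287, 2715 and 3692, and PFKP at 9485, 7863 and 10416. Each was below control in library 1 and above it in library 2. In SW620 the values were 1840, 1706 and 1758 for PFKL, 2003, 2113 and 3044 for PFKM, and 3203, 2418 and 2506 for PFKP, where the knockdown libraries of PFKL and PFKP were below control and those of PFKM above. PFKFB3 and PFKFB4 set the level of fructose 2,6-bisphosphate, the activator of phosphofructokinase. PFKFB3 stood at 1687, 1323 and 2132 in HCT116 and 789, 906 and 703 in SW620. PFKFB4 stood at 239, 389 and 307 in HCT116, above control, and at 376, 263 and 195 in SW620, below control, with a difference between lines of -1.26 ± 0.54. TPI1 stood between 7486 and 12200 in HCT116 and between 12176 and 15336 in SW620.

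The lower part of glycolysis, from GAPDH to pyruvate kinase, took more reads than any other role of the set, from 0.759% to 0.895% of a library. GAPDH stood at 62572, 44850 and 71483 normalized counts in HCT116 and at 57368, 59698 and 52035 in SW620. The log2 fold changes of its 5 members over both lines lay between -0.20 (PKM) and 0.15 (ENO1), each with an SE between 0.20 and 0.31. PKM was below control in all 4 knockdown libraries, with 35122, 29768 and 31146 in HCT116 and 36759, 35210 and 29689 in SW620. PGK1, PGAM1 and ENO1 were below control in HCT116 library 1, and in library 2 PGAM1 and ENO1 were above it.

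Pyruvate is turned into lactate by LDHA and LDHB, or enters the mitochondrion unless pyruvate dehydrogenase kinases such as PDK1 and PDK3 block it. LDHA stood at 13145, 11947 and 16281 normalized counts in HCT116 and at 20771, 25742 and 22868 in SW620. LDHB stood at 15793, 14118 and 18793 in HCT116 and at 20342, 21847 and 23120 in SW620. PDK1 stood at 287, 277 and 314 in HCT116 and at 449, 513 and 491 in SW620. In these 3 genes no knockdown library was 1.5-fold from control. PDK3 (GRCh38 chrX:24465221-24541862, plus strand) stood at 641, 381 and 276 in HCT116, both knockdown libraries below control, and at 1836, 1875 and 3443 in SW620, both above. Its log2 fold change was -0.98 ± 0.46 (SE) in HCT116 and 0.47 ± 0.46 in SW620, with a difference of 1.45 ± 0.65.

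The 2 HCT116 knockdown libraries differed from each other in many members, though others kept 1 direction in both. In library 1, 32 of 37 members were below control and 5 above (EGLN1, HIF1A, SLC2A1, GPI and PFKFB4), with a median log2 ratio of -0.33. All 11 HIF targets outside glucose metabolism, all 5 genes of lower glycolysis and all 4 genes of pyruvate fate were among the 32. In library 2, 13 members were below and 24 above, with a median of 0.19. Over all 18743 genes the median was 0 in both libraries, with 49.9% below control in library 1 and 48.1% in library 2. From library 1 to library 2 the median member was higher by 0.44 on the log2 scale and 28 of 37 members were higher, against a median of 0 and 47.7% of all genes. The largest step was that of ADM, 3.55, and the lowest that of SLC2A3, -0.74. In SW620 the member medians were 0.08 in library 1 and -0.14 in library 2.

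This divergence was read against the scaling, since the authors' size factor was 1.10 for HCT116 library 1 with 16045160 reads and 0.933 for library 2 with 17089096 reads. Scaled to equal library totals instead, the members' medians were -0.19 and 0.00 in HCT116 libraries 1 and 2, where those of all genes moved to 0.07 and -0.16. Members then numbered 31 below and 6 above control in library 1 and 18 below and 19 above in library 2, so the tilt of library 2 upward was no longer seen in the count, while 61.4% of all genes were below control there. From library 1 to 2 the medians were then 0.12 for the members and -0.30 for all genes, a gap of like size to that with the authors' size factors. With edgeR's TMM scaling within the line, the tilt of library 2 stayed, at 13 members below and 24 above control. The member medians were then -0.32 in library 1 and 0.17 in library 2. The members took 1.69% of reads in the HCT116 control, 1.47% in library 1 and 1.71% in library 2, and from 1.39% to 1.49% in SW620. TEAD4 was at 19.2% and 19.3% of control in these 2 libraries. Of the colon epithelium markers, 7 of 9 tested were below control in library 1 and 5 of 9 in library 2, and of the fibroblast markers, 5 of 7 and 3 of 7, at a summed 0.00317% to 0.00541% of reads in HCT116. The part of these markers, and of how the cultures were grown, in the divergence was not tested.

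**Figure D3:**
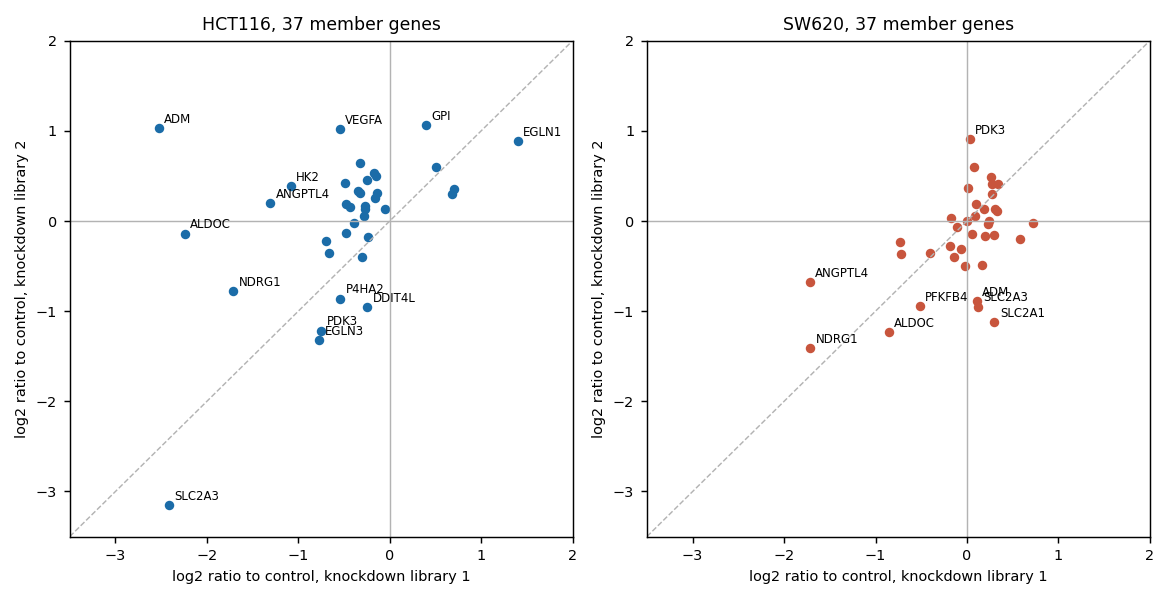
Log2 ratio to control in knockdown library 1 (horizontal) against library 2 (vertical) for the 37 members, in HCT116 (left) and SW620 (right), with a dashed line where both are equal. In HCT116 most points lie left of 0 and above the dashed line, as the medians of -0.33 and 0.19 give, with SLC2A3 low in both libraries.

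Between the lines, the HIF targets and the upper glycolytic genes were mostly higher in HCT116, and no lower glycolytic gene passed the threshold. To compare lines, the recovered reads of all 6 libraries were scaled together, which gives the jointly normalized count, and the line was tested with limma over 3 libraries a line with knockdown as a second term. Of 37 members, 19 were higher in HCT116 and 1 in SW620 at an adjusted p under 0.05, against 25.8% and 23.9% of the 18759 genes tested. Fewer members passed each way with the control libraries alone, a contrast of 1 against 1 library that borrows its spread from the knockdown pairs. The share of all genes in that contrast is not given here. The median difference (SW620 minus HCT116, log2) was -0.55 over the members and -0.02 over all genes. Libraries of 1 line are 1 culture history, so these p-values measure the spread between libraries.

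By role, 3 of 4 HIF system genes, 9 of 11 HIF targets outside glucose metabolism and 7 of 11 genes of upper glycolysis were higher in HCT116. Neither glucose transporter passed, nor did any of the 5 genes of lower glycolysis, and 1 of 4 genes of pyruvate fate, PDK3, was higher in SW620. The 19 were HIF1A, EPAS1, EGLN1, NDRG1, VEGFA, ADM, BNIP3, BNIP3L, P4HA2, KDM3A, ANGPTL4, DDIT4L, HK1, PFKL, PFKM, PFKP, PFKFB3, ALDOA and ALDOC. Leaving out each library in turn left from 13 to 21 members higher in HCT116. The shares of all genes in these refits are not given here, so this range has no background beside it.

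The widest fitted gap with a pseudocount of 1 was that of ANGPTL4, with jointly normalized counts of 2250, 889 and 2512 in HCT116 (control, library 1 and library 2) and 7.87, 1.78 and 4.63 in SW620. In reads these were 5048 over the 3 HCT116 libraries and 16 over those of SW620, a ratio of 383 after scaling with an exact 95% counting interval from 236 to 671, which covers counting error only. The fitted difference was -8.37 ± 0.48 (SE, limma adjusted p = 2.01e-05). DDIT4L, which entered the test through its HCT116 reads, had 256, 211 and 128 there and 0 reads in all 3 SW620 libraries. Set against a floor of 3 reads per library, it was at least 73.6-fold higher in HCT116. NDRG1 stood at 16615, 4950 and 9448 in HCT116 and 107, 32.1 and 39.8 in SW620, a difference of -7.45 ± 0.27 (limma adjusted p = 5.06e-06).

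EPAS1 was likewise far higher in HCT116, at 2177, 1881 and 3065 jointly normalized counts against 31.5, 18.7 and 26.8 in SW620 (-6.48 ± 0.30 SE, limma adjusted p = 1.22e-05). HIF1A differed far less, with 2243, 3106 and 3299 against 1879, 1707 and 1436 (-0.77 ± 0.21, limma adjusted p = 0.0184). Per kilobase, EPAS1 made up 42.4%, 31.5% and 41.3% of the HIF1A and EPAS1 signal in HCT116 and 1.26%, 0.824% and 1.40% in SW620. The 2 lines did not overlap in this share.

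ADM stood at 868, 146 and 1725 jointly normalized counts in HCT116 and 26.2, 28.5 and 13.9 in SW620 (-4.72 ± 0.81 SE, limma adjusted p = 0.00228). With the control libraries alone the ADM difference was -5.00 with an adjusted p of 0.113. BNIP3 stood at 829, 601 and 901 in HCT116 and 27.1, 45.4 and 26.8 in SW620 (-4.53 ± 0.33, limma adjusted p = 4.25e-05), and its relative BNIP3L, a gene of the same function, at 1972, 1186 and 1643 against 656, 401 and 512. ALDOC had 2511, 518 and 2221 in HCT116 and 105, 57.9 and 44.4 in SW620. In all of these genes every HCT116 library was above every SW620 library.

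PDK3 was the only member higher in SW620 past the threshold, with jointly normalized counts of 1644, 1689 and 3107 there and 714, 415 and 299 in HCT116 (2.20 ± 0.37 SE, limma adjusted p = 0.00198). With the control libraries alone its difference was 1.20 with an adjusted p of 0.178. SLC2A1 stood at 12254, 15190 and 5658 in SW620 and 4283, 6712 and 5143 in HCT116, where the lines overlap (0.94 ± 0.38, limma adjusted p = 0.0689). Its adjusted p was 0.0381 in edgeR and 0.0199 in DESeq2, which makes 2 members higher in SW620 with those tools. The differences in lower glycolysis lay between -0.34 for GAPDH and 0.28 for PGK1. LDHA (0.47 ± 0.20) and PDK1 (0.44 ± 0.21) did not pass.

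**Figure D4:**
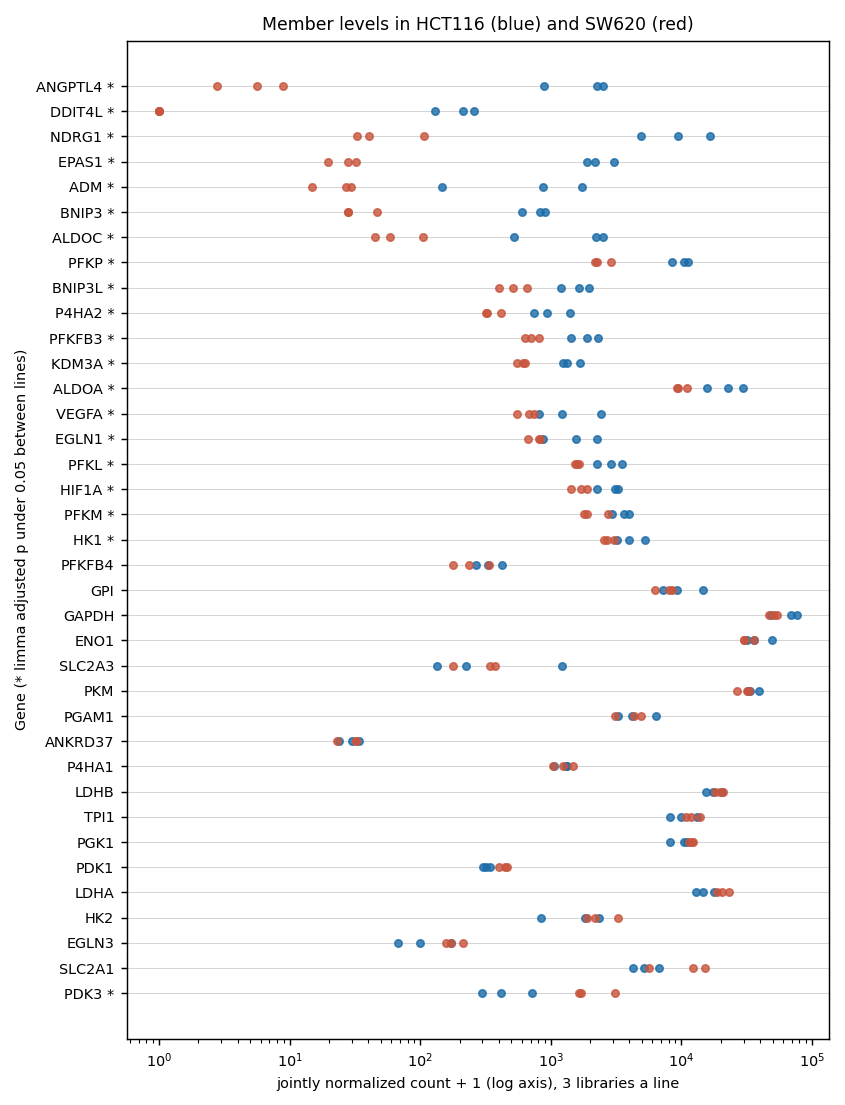
Jointly normalized count plus 1 of each member on a log axis, with the 3 HCT116 libraries in blue and the 3 SW620 libraries in red, and genes ordered by the fitted difference. ANGPTL4, DDIT4L, NDRG1, EPAS1, ADM, BNIP3 and ALDOC stand far apart at the end where HCT116 is higher, PDK3 stands at the other end, and a star marks an adjusted p under 0.05.

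Shares per kilobase show which form of a step each line used most by RNA, without a test. PFKP was 55.6%, 56.2% and 53.5% of the phosphofructokinase signal in HCT116 (control, library 1 and library 2) and 38.7%, 32.9% and 29.9% in SW620. PFKL was 26.6%, 25.8% and 29% in HCT116 and 38.8%, 40.5% and 36.6% in SW620. The lines did not overlap in either share. With the longest transcript in place of the median length, PFKL was 16.7% in the HCT116 control and 26.2% in the SW620 control and PFKP was 64.2% and 48.0%, so which of them is larger in SW620 depends on the length taken. HK2 was 19.6%, 15.4% and 29% of the hexokinase signal in HCT116 and 32.9%, 45.5% and 34.1% in SW620, so HK1 was the larger form in all 6 libraries per kilobase, though HK2 had more reads than HK1 in SW620 library 1. ALDOC was 9.02%, 2.86% and 6.28% of the aldolase signal in HCT116 and under 1% in each SW620 library, from 0.428% to 0.989%. LDHA stayed between 39.3% and 40.3% of the lactate dehydrogenase signal in HCT116 and between 43.5% and 47.8% in SW620, where by reads without length it was 50.5% in the control.

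PFKFB4 was 16.4%, 28.9% and 16.6% of the PFKFB3 and PFKFB4 signal in HCT116 and 39.8%, 28.7% and 27.7% in SW620. P4HA2 was 54.7%, 50.1% and 39.0% of the prolyl 4-hydroxylase signal in HCT116 and 26.0%, 22.9% and 24.5% in SW620. With the longest transcript it was 47.3%, 42.7% and 32.2% in HCT116, so which form is larger in the HCT116 control and library 1 depends on the length. PDK1 was 21.8%, 31.2% and 41.6% of the PDK1 and PDK3 signal in HCT116 and 13.2%, 14.6% and 8.17% in SW620. This share also depends on the length taken, being 5.70% in the HCT116 control and 3.21% in the SW620 control with the longest transcript in place of the median length. With either length PDK3 was the larger of the pair, though by reads without length PDK1 was 53.3% in HCT116 library 2.

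**Figure D5:**
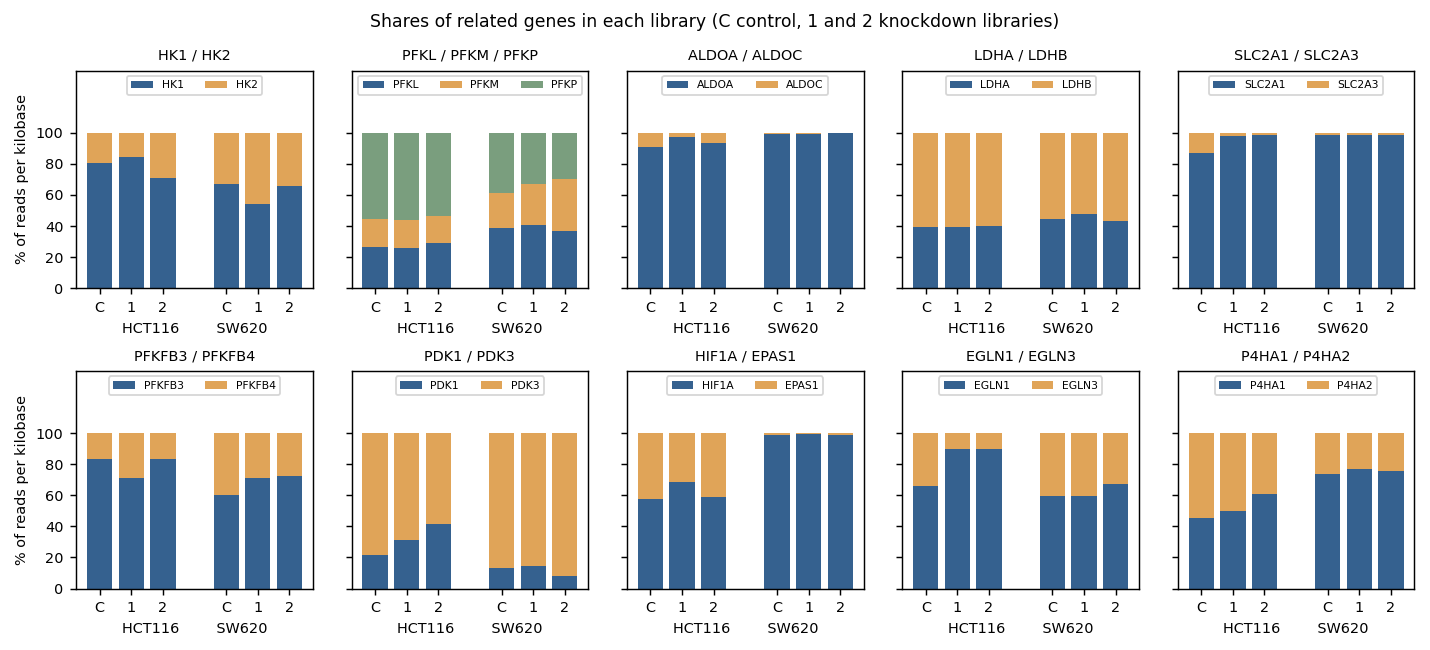
Percent of reads per kilobase of transcript that each gene takes within 10 groups of related members, 1 bar for each library (C control, 1 and 2 knockdown libraries), HCT116 on the left and SW620 on the right of each panel. SLC2A3 takes 13.3% in the HCT116 control and under 2% in the other libraries, and EPAS1 takes from 31.5% to 42.4% in HCT116 and from 0.824% to 1.40% in SW620.

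Further genes of the pathway were read from lists beside the members. Of the other HIF targets, 31 of 36 were tested, 0 passed the adjusted threshold for knockdown over both lines with limma, and 2 were higher and 2 lower at an unadjusted limma p under 0.05. LOXL2, a lysyl oxidase that cross-links collagen, had the smallest p of the list (log2 fold change over both lines -1.11 ± 0.25, SE), with 1914, 796 and 1036 normalized counts in HCT116 and 130, 51.4 and 65.6 in SW620. All 4 knockdown libraries stood below control, as for NDRG1. AK4, a mitochondrial adenylate kinase, stood at 996, 1127 and 1293 in HCT116 and 1151, 2013 and 1782 in SW620 (0.50 ± 0.20). PLIN2, which coats lipid droplets, stood at 171, 639 and 375 in HCT116 and 4562, 2761 and 2134 in SW620, past 1.5-fold upward in the first line and downward in the second. Between the lines, 18 of these targets were higher in HCT116 and 5 in SW620 of 31 tested, against 25.8% and 23.9% of all genes, with a median difference of -1.35.

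Of the regulators of the HIF pathway, all 13 were tested and 0 passed for knockdown, 0 also at an unadjusted limma p under 0.05. VHL, which takes hydroxylated HIF to destruction, stood at 1137, 2371 and 1449 normalized counts in HCT116 and 3545, 4054 and 4160 in SW620 (0.46 ± 0.25 SE). ARNT, the stable partner of both alpha subunits, stood at 1364, 884 and 1111 in HCT116 and 779, 506 and 731 in SW620 (-0.41 ± 0.23). The other isozymes and transporters, 25 tested of 31, had 0 past the adjusted threshold with limma and 2 lower at an unadjusted p under 0.05, among them LDHAL6B, whose highest value was 16.3 normalized counts.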

How the data were processed

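For each line the authors deposited a table of 26364 features. Its signal columns, 1 for each library, are normalized counts, the reads of a gene over the library's size factor, as the deposited values show: multiplied back, 100% of values were whole reads within a tolerance of 1e-06. The same tables give, per the file headers, a mean signal and a log2 fold change with its standard error, the score of the authors' test, and a p-value with its adjusted p-value. RNA was taken up in Trizol and made into libraries with a TruSeq RNA kit that keeps no strand, per the labels' protocols, so antisense reads cannot be told apart. The submitters' processing notes list Bowtie 0.12.2 and hg18. The gene counter, and its treatment of reads shared with copies and pseudogenes (GAPDH, PGK1, LDHA and others), are both not given in the sources used here. Of the features, 28 with date-like names (0.232% to 0.262% of reads) were left out, which leaves 26336 genes.

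Values were tested with limma 3.58.1 (R 4.3.3; eBayes with trend, two-sided) on log2(normalized count + 1), which understates changes of low genes, over the 18743 genes with a mean of at least 1, and p-values were adjusted over all of them by Benjamini and Hochberg. All 37 members passed this filter. The fit over both lines held a line term and a knockdown term, leaving 3 residual degrees of freedom. Each line and their difference came from a fit of 4 group means (2 residual degrees of freedom). There, a single control is taken to vary as much as the paired knockdown libraries do. Levels between lines used recovered reads with size factors made over the 6 libraries. edgeR 4.0.16 and DESeq2 1.42.0 on the recovered reads were alternatives. The fits over both lines and in HCT116 were tested on simulated data. There both knockdown libraries of a line shared the same gene means, so libraries that diverge as those of HCT116 did are not covered. Lengths are the median of a gene's protein-coding basic transcripts in GENCODE release 29, chosen in place of the longest after the values were seen, because the longest PDK1 transcript is far longer than the rest. GRCh38 positions come from the same release, and promoters from RefSeq.

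Members and lists were chosen with earlier results of these data known. Values in every library are given for TEAD4, for members at an unadjusted p under 0.05, past 1.5-fold in both knockdown libraries of a line or called in the authors' table, and for isozyme groups. For the lines, up to 6 members past the threshold with the widest differences each way are given (only PDK3 passed toward SW620), and of each further list up to 4 genes, the 3 with the smallest p and those past 1.5-fold. ADM, VEGFA, ANGPTL4, BNIP3, BNIP3L, GAPDH, PKM and TPI1 after knockdown, and HIF1A, GAPDH, PGK1, SLC2A1, ALDOC, BNIP3L, LDHA and PDK1 between lines, were named after their values were seen. Some genes of the further lists are not reported here.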

Additional observations from a re-analysis of the deposited data

How the results depend on the processing

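No paired analysis was possible because each line had 1 control library. The labels also mark knockdown samples by letter while the deposited columns number them, with nothing to match one to the other. For TEAD4 and selected members, such as NDRG1, SLC2A3, EGLN1, PDK3 and EPAS1, log2 differences were followed through the alternatives, and 0 changed direction. For knockdown over both lines, the alternatives without a control only repeat the value of the other line. Some differences outside this selection did change. ADM in HCT116 was -0.75 with limma, 0.11 with edgeR and 0.11 with DESeq2. HK2 over both lines was -0.08 with limma, 0.02 with edgeR and 0.02 with DESeq2. Of the shares in the control libraries, the larger form changed with the length taken for P4HA1 and P4HA2 in HCT116 (P4HA1 45.3%, 52.7% with the longest transcript). It also changed for PFKL and PFKP in SW620 and, by reads, for LDHA and LDHB in SW620 (LDHA 44.3% and 50.5%). The count of members past the adjusted threshold in HCT116 was 0 with limma and edgeR and 1 with DESeq2 (SLC2A3). The median member's difference between lines in the knockdown effect, 0.11 with all libraries, ranged from -0.23 to 0.31 when 1 library was left out, the lowest without HCT116 knockdown library 1 and the highest without library 2. Members higher in SW620 numbered 1 with limma, 2 with edgeR, 2 with DESeq2 and 0 from the control libraries alone, and from 1 to 2 with 1 library left out. Members higher in HCT116 numbered 19, and 9 from the control libraries alone. At 2-fold in place of 1.5-fold, members past the size in both knockdown libraries numbered 0 upward (from 1) and 1 downward (from 4) in HCT116, and 1 downward (from 2) in SW620. With a mean of at least 100 normalized counts, 0 remained downward in SW620. Equal library totals, TMM within a line in the member medians, and the longest transcript were alternatives added after the values were seen. Depth limits the members with few reads in SW620, such as ANGPTL4 with 16 reads over 3 libraries.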

Other observations

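Beside glycolysis, the genes that lead glucose carbon into other routes were read from lists. Of the pentose phosphate pathway, which branches off at glucose 6-phosphate, all 7 genes were tested and 0 were past an adjusted limma p of 0.05 for knockdown, 0 also at an unadjusted p under 0.05. In HCT116 all 7 were above control in knockdown library 2, against 48.8% of all genes, and 5 of 7 in library 1, against 47.4%. The median log2 fold change in HCT116 was 0.35 against 0.00 over all genes. In SW620 the median was 0.05. RPIA, the ribose 5-phosphate isomerase, stood at 952, 869 and 1972 normalized counts in HCT116 (control, library 1 and library 2) and at 814, 1163 and 1127 in SW620. PGD, the phosphogluconate dehydrogenase, stood at 2495, 3350 and 3213 in HCT116 and at 4078, 4080 and 4371 in SW620. Transketolase (TKT) stood at 8276, 8308 and 13820 in HCT116 and at 4570, 4638 and 6471 in SW620.

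Of the genes of pyruvate entry into mitochondria, 11 of 13 were tested and 0 passed for knockdown over both lines, 0 also at an unadjusted limma p under 0.05. PDP1, the phosphatase that turns pyruvate dehydrogenase on, stood at 10616, 16133 and 17642 normalized counts in HCT116 and at 549, 389 and 272 in SW620, above control in one line and below it in the other, and it was higher in HCT116, with a SW620 minus HCT116 difference of -5.50 on the log2 scale (limma adjusted p = 1.75e-05). PDK4, a kinase that turns it off, stood at 204, 58.2 and 290 in HCT116 and at 117, 44.5 and 31.8 in SW620. DLAT, the E2 subunit of the complex, stood at 1135, 1675 and 1584 in HCT116 and at 2684, 2919 and 3250 in SW620, above control in all 4 knockdown libraries.

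Among further HIF targets, PPFIA4 stood at 632, 136 and 261 normalized counts in HCT116 and at 50.8, 21.8 and 57.4 in SW620. CXCR4, the receptor of the chemokine CXCL12, stood at 56.9, 18.2 and 12.9 in HCT116 and at 0.976, 3.95 and 7.18 in SW620. Both genes were chosen after their values were seen.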
